A study of Homo sapiens with 14 samples.

Results

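H929 is an established line of human multiple myeloma, a cancer of antibody-secreting plasma cells. Its RNA was sequenced with 2 separate control groups, and those 2 groups are compared here with each other: the scramble that accompanied the hairpin shRNA1 and the scramble that accompanied the hairpin shRNA2, with 2 libraries each. The libraries were chosen by their column names in the deposited H929 table. They are 4 of the 14 libraries of a study that depleted ZBP1 in MM1.S and H929 cells, and no library with a hairpin against ZBP1 entered the comparison.

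Both groups were H929 cells with an unmodified ZBP1 gene, grown in RPMI 1640 with 10% FBS and transduced with lentivirus carrying a scrambled sequence. Neither is therefore an untreated culture: all 4 libraries share the transduction, and no H929 library without virus was analysed here. The labels do not say whether the 2 scrambled sequences were the same, nor when either group was transduced or harvested. Day, virus preparation, culture density and the vector itself cannot be told apart as sources of a difference between the groups. Because no label states that replicates are independent cultures, p-values reflect the scatter among 4 libraries, and that scatter could be technical.

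Type I interferons bind a receptor on the cell surface and act through the kinases JAK1 and TYK2 on a complex of STAT proteins and IRF9, which binds the interferon-stimulated response element and induces a large set of antiviral genes. ZBP1, a sensor of Z-form nucleic acids, is one of these genes. Entry into the cell cycle rests on E2F factors, which induce the genes of DNA replication. The DREAM and MuvB complexes act through the cell cycle homology region in the promoters of mitotic genes. Cells that leave the cycle raise CDK inhibitors such as CDKN1A and the targets of FOXO factors.

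The 4 libraries held 16.88 to 17.44 M reads in genes, of which 6.63% to 7.22% came from mitochondrial genes. Libraries of the same group differed more than counting noise allows (chi-square per degree of freedom of 7.50 in the scramble for shRNA1 and 5.48 in the scramble for shRNA2), and libraries of different groups differed more again (31.2 to 47.0). The SD of the log2 differences across genes was 0.355 and 0.361 within the groups and 0.557 to 0.668 between them. Values below are the deposited read counts scaled by 1 size factor per library. Differences are given as the scramble for shRNA2 minus the scramble for shRNA1, on the scale of log2(value + 1), with the standard error of limma's fit and a p-value adjusted over all genes tested (Benjamini-Hochberg); "higher" and "lower" are used for an adjusted p under 0.05.

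Between the 2 scramble groups, genes of DNA replication and mitosis were higher and interferon-stimulated genes were lower with the scramble for shRNA2. Of 16884 genes tested, 2995 were higher (17.7%) and 2213 were lower (13.1%), so that 30.8% of the tested genes were called between 2 sets of controls. A difference of at least 2-fold was reached by 418 of the higher genes (2.48% of all tested) and by 705 of the lower ones (4.18%). The median over all genes was 0.03. Scaling to the library total instead moved that median to -0.09 and turned the split to 1904 higher and 3232 lower, so the balance of the directions depends on the scaling, and 37.1% rather than 57.5% of the calls were then higher. The count of higher genes was 1986 without replicate 1 of the scramble for shRNA2 and 1549 without replicate 2 of the scramble for shRNA2, and that of lower genes was 1354 and 1276 in those fits and 1347 without replicate 2 of the scramble for shRNA1.

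**Figure D1:**
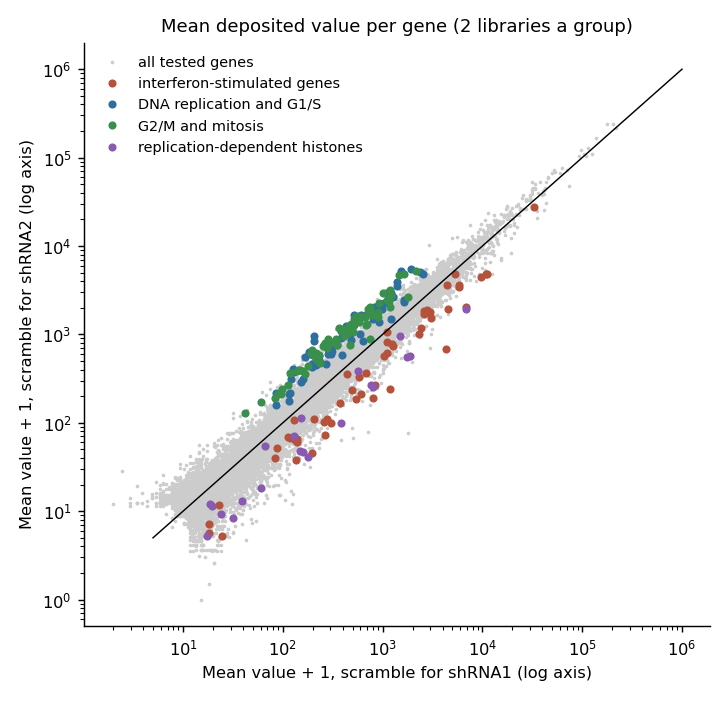
Mean deposited value plus 1 of each tested gene in the scramble for shRNA1 (x axis, log scale) and the scramble for shRNA2 (y axis, log scale), 2 libraries a group; the line marks equal values. Members of the replication list (64 genes) and the mitosis list (76 genes) lie above the line, and the interferon-stimulated genes (54 genes) and the histone genes (22 genes) lie below it.

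The interferon-stimulated genes formed the list with the most members lower with the scramble for shRNA2: 48 of its 54 tested members were lower (88.9%, against 13.1% of all genes) and 0 were higher by limma, by edgeR or by DESeq2, or at an unadjusted p under 0.05. The median difference was -1.04, against 0.03 over all genes, and in 52 members both libraries of the scramble for shRNA2 lay below both of the scramble for shRNA1 (66.2% of all genes did not overlap, in either direction). IFI27, a small mitochondrial protein of the interferon response, differed most among the prespecified members. Its values were 4077 and 4574 in the scramble for shRNA1 and 787 and 563 in the scramble for shRNA2, which is 6.41-fold lower (log2 difference -2.70 ± 0.13, adjusted p = 1.3e-09). The gene lies on chromosome 14 (94104836 to 94116698, plus strand, GRCh38) and overlaps no other annotated gene.

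MX1, a GTPase that blocks viral replication, stood at 7749 and 11587 with the scramble for shRNA1 and at 5253 and 3625 with the scramble for shRNA2 (-1.12 ± 0.16, adjusted p = 6.2e-05). IFI6 stood at 6239 and 7298 against 2306 and 1809 (-1.72 ± 0.11, adjusted p = 2.4e-08). In both genes the groups did not overlap, yet the libraries within a group also stood apart.

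That spread within the groups ran across the list. Replicate 2 of the scramble for shRNA1 was above replicate 1 for 50 of the 54 members (median log2 difference 0.31), and replicate 1 of the scramble for shRNA2 was above replicate 2 for 49 of the 54 (median 0.38). This count was made after the values were seen. The nearest libraries of different groups, replicate 1 of each, still differed by a median of -0.59 over the list. Leaving out replicate 2 of the scramble for shRNA2 left 35 members lower, the fewest of any alternative that kept the filter on low values; scaling to library totals gave the most, 50.

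Effectors and regulators of the response fell together. ISG15, a ubiquitin-like modifier, was 2.37-fold lower (-1.23 ± 0.14), OAS1, which makes the activator of RNase L, was 2.28-fold lower (-1.19 ± 0.15), and IFITM1, a membrane protein that blocks viral entry, was 4.92-fold lower (-2.33 ± 0.19). IRF7, the factor that drives type I interferon genes, was 2.00-fold lower (-0.99 ± 0.12) and IRF9, the DNA-binding partner of STAT proteins, was 1.85-fold lower (-0.89 ± 0.17). IFIT1, which binds viral RNA caps, was 1.83-fold lower (-0.86 ± 0.20, adjusted p = 0.00292), a call that was lost without replicate 2 of the scramble for shRNA2 (adjusted p = 0.166) and with DESeq2 (0.164). Reads of IFITM1 and the other IFITM genes may be split between near-identical copies, and IFITM3 did not reach the filter on low values.

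ZBP1 itself, the gene targeted in the rest of the study, was at 4269 and 4513 with the scramble for shRNA1 and at 3449 and 3729 with the scramble for shRNA2. The groups did not overlap, and ZBP1 was 1.22-fold lower with the scramble for shRNA2 (-0.29 ± 0.09, adjusted p = 0.0242). The call was lost without replicate 2 of the scramble for shRNA1 (adjusted p = 0.154), without replicate 1 (0.146) or replicate 2 (0.0520) of the scramble for shRNA2, after correction for GC content (0.0817) and with no filter on low values (0.135), while the direction held in each of these fits. The gene lies on chromosome 20 (57603846 to 57620576, minus strand). ADAR, the RNA editor whose interferon-induced form also binds Z-form RNA, was at 32165 and 33582 against 28140 and 26802, with a difference of -0.26 ± 0.11 that missed the threshold (adjusted p = 0.0796). Both were thus nearer to 0 than the list's median. The 6 members that did not pass were ADAR, IFIT2, CMPK2, BST2, TRIM14 and PLSCR1, and all 6 differences were negative, from -1.03 for CMPK2 to -0.03 for TRIM14.

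**Figure D2:**
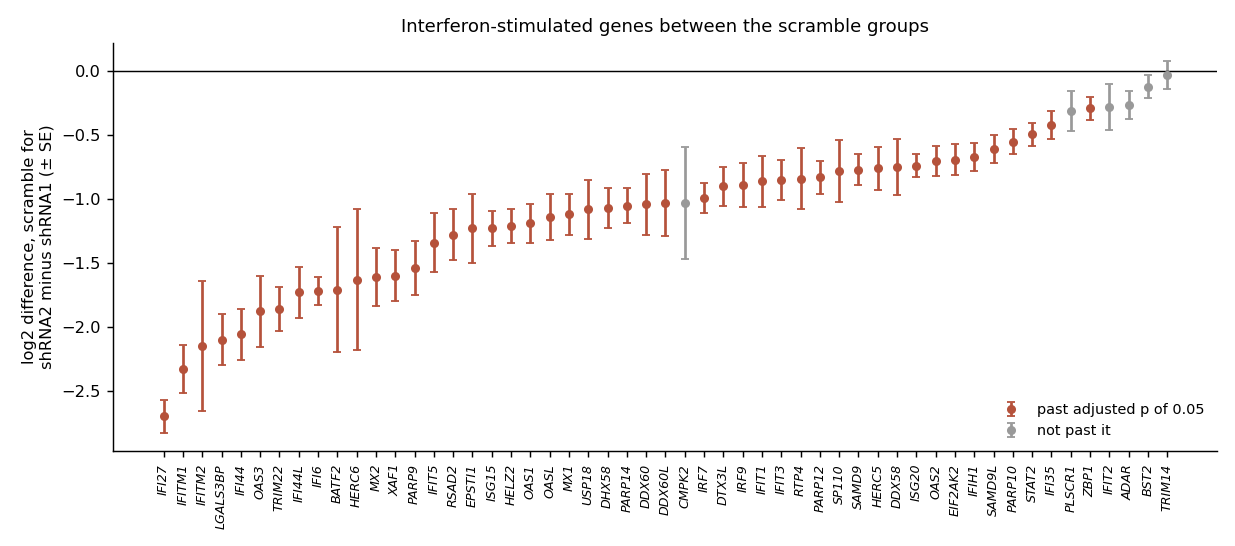
Log2 difference, scramble for shRNA2 minus scramble for shRNA1, with its standard error, for the tested interferon-stimulated genes, 1 of which is not drawn (2 libraries a group). All points lie below 0, from -2.70 for IFI27 to -0.03 for TRIM14, and the 6 grey points did not pass the adjusted threshold.

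Interferon transcripts were close to absent in the 4 libraries. Over 22 interferon ligand genes, recovered read counts summed to 4 and 10 in the scramble for shRNA1 and to 5 and 1 in the scramble for shRNA2, 16 of the genes had 0 reads in every library, IFNB1 among them, and no gene had more than 4 reads in a library. At this depth no difference between the groups in these genes was detectable. Among the receptors and regulators, 5 of 13 tested members were lower (38.5%, beside 13.1% of all genes), with a median of -0.29. Higher members numbered 0 by limma, edgeR and DESeq2, and 0 at an unadjusted p under 0.05. The 5 were JAK1, IFNLR1, USP18, SOCS1 and SOCS3. SOCS3, a feedback inhibitor of JAK kinases, was at 369 and 572 against 207 and 156 (-1.35 ± 0.18). The genes of the type I receptor, IFNAR1 and IFNAR2, did not pass. The list's count was 2 without replicate 2 of the scramble for shRNA1, 3 and 1 without replicate 1 and replicate 2 of the scramble for shRNA2, and 10 with library-total scaling.

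Among sensors of nucleic acids and interferon regulatory factors, 7 of 27 were lower (25.9%) and 5 higher (18.5%), against 13.1% and 17.7% of all genes. The higher share was thus near that of all genes. IRF1 was at 2354 in both libraries of the scramble for shRNA1 and at 1373 and 1563 with the scramble for shRNA2 (-0.68 ± 0.10). RNASEH2A, the catalytic subunit of the enzyme that removes ribonucleotides from DNA, went the other way, at 720 and 624 against 1456 and 1588 (1.18 ± 0.11). The other higher members were RNASEH2B, RNASEH2C, DDX41 (adjusted p = 0.0498) and the gene of cGAS. The lower count of this list was 11 with library-total scaling. The higher count was 4 with that scaling, with TMM scaling, with edgeR and with DESeq2.

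Some promoters of the list hold the response element through which interferons act, and these are shown for 8 genes chosen because they hold it. The windows below are 30 bases each from the RefSeq table of promoters (GRCh38.p14), in gene orientation; capitals mark the match nearest to the gene's start to GAAA, any 2 bases and GAAA again, or to its reverse complement (TTTC, any 2 bases, TTTC), the core of the interferon-stimulated response element. They are the 8 lower members with the largest difference among those whose 250 bases before the start hold a match; members between them in rank with no match or no promoter in the table, such as IFITM2 and TRIM22, are passed over.
IFI27, chr14:94110631-94110660, plus strand: cggtttcctgGAAAATGAAAcctatctcat
IFITM1, chr11:313990-314019, plus strand: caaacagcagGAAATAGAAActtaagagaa
LGALS3BP, chr17:78979962-78979991, minus strand: gtggtttctgGAAATCGAAAgtagactctt
IFI44, chr1:78649759-78649788, plus strand: gggcacactgagTTTCAGTTTCctttctct
OAS3, chr12:112938444-112938473, plus strand: gttcggagagccgggcggGAAAACGAAAcc
IFI44L, chr1:78620365-78620394, plus strand: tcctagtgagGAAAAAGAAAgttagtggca
IFI6, chr1:27672266-27672295, minus strand: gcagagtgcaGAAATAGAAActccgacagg
PARP9, chr3:122564322-122564351, minus strand: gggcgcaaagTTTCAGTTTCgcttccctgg
The log2 differences of these 8 genes ran from -2.70 for IFI27 to -1.54 for PARP9. Of the 42 list members with a promoter in the table, 27 held a match in the 250 bases before the start (64.3%). Among all 11325 tested genes with a promoter, 403 did (3.56%). Taking all 403 of those genes, 87 were lower (21.6%) and 64 were higher (15.9%), beside 13.4% lower and 20.8% higher over the 11325. With the members of 6 gene lists set aside (interferon, replication, mitosis, recombination repair, histones and ribosomal proteins), 62 of 368 genes with a match were lower (16.8%), beside 13.3% of 11058.

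Genes of DNA replication were all higher with the scramble for shRNA2: 64 of 64 tested members passed (17.7% of all genes did) and 0 were lower by limma, edgeR or DESeq2, or at an unadjusted p under 0.05. The median was 1.23. UHRF1, which brings the maintenance methyltransferase to newly copied DNA, showed the largest difference of the list. It was at 236 and 170 with the scramble for shRNA1 and at 886 and 1008 with the scramble for shRNA2, a 4.66-fold difference (2.23 ± 0.14, adjusted p = 2.2e-08). It lies on chromosome 19 (4903080 to 4962154, plus strand).

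MCM10, which helps to fire replication origins, was at 229 and 179 against 793 and 892 (2.05 ± 0.14). MCM2, a subunit of the replicative helicase, was at 1488 and 1285 against 3496 and 4388 (1.5 ± 0.11), and MCM4, another subunit, at 1697 and 1355 against 4985 and 5416 (1.78 ± 0.11). RRM2, the regulated subunit of the enzyme that makes deoxynucleotides, was at 2116 and 1750 against 5422 and 5679 (1.53 ± 0.10). In each of these genes both libraries of the scramble for shRNA2 stood above both of the other group. The gap between the groups was several times that between replicates, except for MCM2, whose libraries of the scramble for shRNA2 stood further apart. CLSPN, the claspin adaptor of the replication checkpoint, was 3.46-fold higher (1.80 ± 0.14).

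The next windows show E2F sites in the promoters of replication genes, in the same form. Capitals mark a match to TTTCCCGC, TTTGGCGC, TTTGCCGC or TTTCGCGC on either strand. The 6 genes are members of the list with large differences that hold a match. Not every member was eligible for a window, so a member not printed, even with a larger difference, may also hold a match.
UHRF1, chr19:4909471-4909500, plus strand: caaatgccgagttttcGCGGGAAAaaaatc
GINS2, chr16:85688967-85688996, minus strand: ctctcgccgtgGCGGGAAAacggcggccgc
MCM3, chr6:52284898-52284927, minus strand: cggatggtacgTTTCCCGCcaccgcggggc
TYMS, chr18:657603-657632, plus strand: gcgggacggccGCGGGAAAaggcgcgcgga
TIPIN, chr15:66356729-66356758, minus strand: gcacggatttgGCGCCAAAcgctgcgggcc
DUT, chr15:48332159-48332188, plus strand: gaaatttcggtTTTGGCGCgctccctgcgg
Of 54 list members with a promoter in the table, 19 held such a match (35.2%), beside 618 of 11325 tested genes (5.46%). The log2 differences of the genes printed ran from 2.23 for UHRF1 to 1.29 for DUT and TIPIN. Of all 618 genes with a match, 199 were higher (32.2%) and 60 lower (9.71%), beside 20.8% and 13.4% over the 11325. Outside the 6 lists the share higher was 28.9% (167 of 577 genes), beside 19.6%.

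Mitotic genes were also higher. Of 76 tested members of the G2/M and mitosis list, 75 were higher (98.7%, beside 17.7% of all genes), with a median of 1.35. Those lower numbered 0 by limma, edgeR and DESeq2, and 0 at an unadjusted p under 0.05. The count of higher members was 75 in every alternative that kept a filter on low values. CKAP2 was the one member not to pass, at 712 and 780 against 994 and 798 (0.26 ± 0.12, adjusted p = 0.109).

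MKI67, the gene of the Ki-67 proliferation antigen, was at 1711 and 1539 with the scramble for shRNA1 and at 4761 and 4871 with the scramble for shRNA2, a 2.96-fold difference (1.57 ± 0.09, adjusted p = 2.0e-08). CCNB1, the cyclin that drives entry into mitosis, was at 956 and 1066 against 2938 and 3004 (1.56 ± 0.10). TOP2A, the topoisomerase that untangles replicated chromosomes, was at 1885 and 2431 against 5316 and 5109 (1.28 ± 0.11). The groups stood well apart in all 3 genes. Replicates were close together for MKI67 and CCNB1, and less so for TOP2A in the scramble for shRNA1. NCAPH, a condensin subunit, was 3.41-fold higher (1.80 ± 0.16), HMMR, a spindle protein, 3.22-fold (1.69 ± 0.12), MYBL2, the transcription factor B-MYB, 3.20-fold (1.68 ± 0.10) and TTK, a kinase of the spindle checkpoint, 3.20-fold (1.67 ± 0.13). In bulk RNA, more cells in a phase of the cycle and more RNA per cell cannot be told apart.

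The mitotic genes carry another short motif, the cell cycle homology region TTTGAA or its reverse complement TTCAAA. Capitals mark it in the windows of 5 list members with large differences that hold it. Here too, not every member was eligible for a window, and a member not printed may hold the motif.
HMMR, chr5:163460598-163460627, plus strand: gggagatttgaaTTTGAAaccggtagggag
MKI67, chr10:128126435-128126464, minus strand: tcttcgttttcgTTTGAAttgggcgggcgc
CDC20, chr1:43358904-43358933, plus strand: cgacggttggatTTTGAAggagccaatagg
GTSE1, chr22:46296832-46296861, plus strand: ctcggagcccttTTCAAAccgaccaatcgg
KIF4A, chrX:70290058-70290087, plus strand: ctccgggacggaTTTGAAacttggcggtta
It was found in 31 of 65 list members with a promoter (47.7%), in 3 of 54 replication genes (5.56%) and in 1350 of 11325 tested genes (11.9%). Of those 1350 genes, 321 were higher (23.8%) and 162 lower (12%), beside 20.8% and 13.4% over the 11325. Outside the 6 lists the share higher was 21.6% (281 of 1299 genes), beside 19.6%, which is near the background. MKI67 and HMMR are among those printed, and GTSE1 holds the motif on the opposite strand.

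Homologous recombination and Fanconi repair genes, which act on stalled forks, were higher in 27 of 28 members (96.4%, beside 17.7% of all genes, median 1.20). Only ATM did not pass (0.02 ± 0.10, adjusted p = 0.891). BRCA1 was at 391 and 283 against 1153 and 1168 (1.80 ± 0.13) and EXO1, a nuclease that resects DNA ends, at 171 and 182 against 578 and 645 (1.79 ± 0.13). ATM, by contrast, was at 4153 and 3689 against 4177 and 3777, and its groups overlapped.

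Regulators of the G1 phase were called in both directions. Of 27 members, 13 were higher (48.1%) and 5 lower (18.5%), beside 17.7% and 13.1% of all genes, so the lower share was near that of all genes. The 5 lower ones were all CDK inhibitors: CDKN1A, CDKN1B, CDKN1C, CDKN2B and CDKN2D, named here after their values were seen. CDKN1A, the p21 inhibitor, was at 15162 and 15620 with the scramble for shRNA1 and at 7105 and 6772 with the scramble for shRNA2, 2.22-fold lower (-1.15 ± 0.10, adjusted p = 1.2e-07). CDKN1C was at 56.4 and 86.9 against 17.5 and 19.1 (-1.88 ± 0.29). Other inhibitors did not follow: CDKN2A was not called, and CDKN2C was at 2146 and 2341 against 2657 and 2704 (0.26 ± 0.09, adjusted p = 0.0438), a positive difference that lost its call in all 4 fits without 1 library (adjusted p of 0.0558 to 0.260). RBL1, the pocket protein p107, was 2.14-fold higher (1.10 ± 0.13), LIN9, a subunit of MuvB, 2.00-fold higher (0.99 ± 0.15) and E2F7, a repressor of the E2F family, 1.84-fold higher (0.87 ± 0.16). The count of lower members was 3 without replicate 2 of the scramble for shRNA1 and 3 without replicate 1 of the scramble for shRNA2.

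Genes of quiescence and FOXO targets were lower in 13 of 20 members (65%, beside 13.1% of all genes), with a median of -0.66. Higher members numbered 0 by limma, edgeR and DESeq2, and 0 at an unadjusted p under 0.05. YPEL3, a gene tied to growth arrest, was at 2398 and 3521 against 707 and 700 (-2.04 ± 0.13), and PIK3IP1, an inhibitor of PI3-kinase, at 779 and 975 against 243 and 251 (-1.82 ± 0.13). TXNIP, which restrains glucose uptake, was at 11648 and 13127 against 5390 and 4329 (-1.36 ± 0.11). These genes were high where the replication genes were low.

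Histone transcripts ran against the replication genes. Of 22 tested members of the list of replication-dependent histones, 18 were lower (81.8%, beside 13.1% of all genes), with a median of -1.62. Those higher numbered 0 by limma, edgeR and DESeq2, and 0 at an unadjusted p under 0.05, while 8 members did not reach the filter. HIST1H1C, a linker histone, was at 5584 and 8200 against 1943 and 1891 (-1.82 ± 0.13), and HIST1H4E, a core histone, at 196 and 162 against 45.3 and 34.0 (-2.15 ± 0.22). HIST1H3H was at 379 and 381 against 102 and 96.8 (-1.92 ± 0.15). Canonical histone mRNAs end in a stem-loop without a poly(A) tail, and these libraries were made from poly(A) RNA, so the values cover only transcripts that were polyadenylated or carried over. Histone genes are near-identical copies whose reads the counting may have split. SLBP, which binds that stem-loop, was among the replication genes that were higher.

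**Figure D3:**
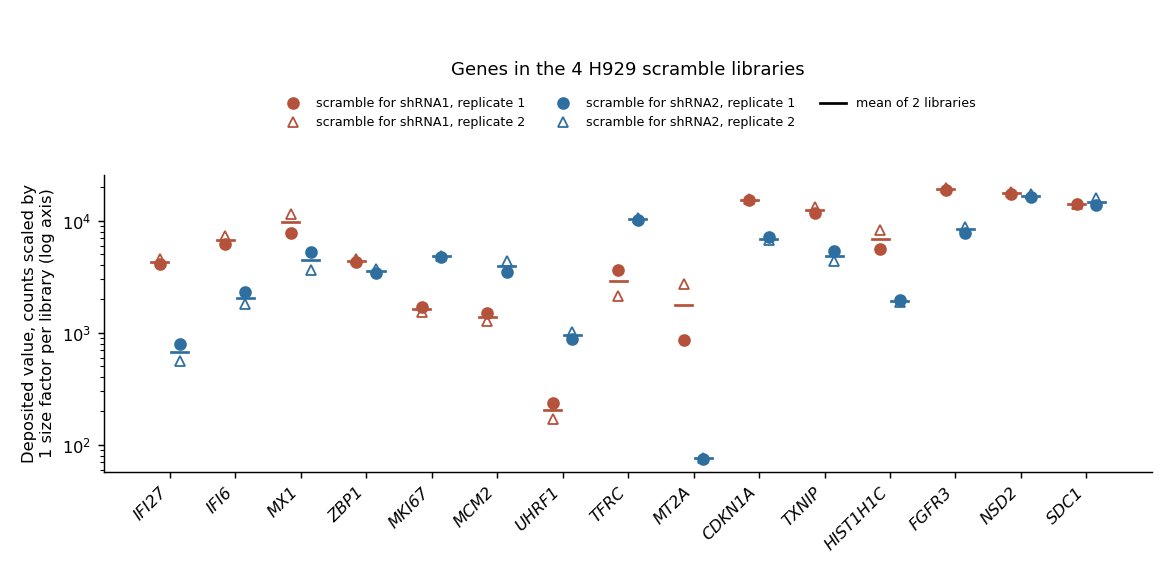
Deposited value of 15 genes in each of the 4 H929 scramble libraries (log axis); filled circles are replicate 1, open triangles replicate 2, and bars the mean of the 2 libraries of a group. Interferon genes, MT2A, CDKN1A, TXNIP, HIST1H1C and FGFR3 sit lower with the scramble for shRNA2, MKI67, MCM2, UHRF1 and TFRC sit higher, and NSD2 and SDC1 did not pass the test.

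Genes of cell growth were higher with the scramble for shRNA2, by less than the cell cycle genes. Ribosome biogenesis genes were higher in 39 of 44 members (median 0.55), cytosolic ribosomal proteins in 59 of 77 (median 0.35), proteasome subunits in 27 of 31 (median 0.45) and ATF4 targets and amino acid supply genes in 25 of 32 (median 0.46), against 17.7% of all genes. None of these 4 lists had a lower member by limma, edgeR or DESeq2, or at an unadjusted p under 0.05. UTP20, a factor of the small ribosomal subunit, was at 450 and 424 against 856 and 932 (1.03 ± 0.11). PSMD1, a proteasome subunit, was at 1360 and 1143 against 2208 and 2315 (0.86 ± 0.10).

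The ribosomal protein count rested on the libraries used: it was 17 without replicate 2 of the scramble for shRNA2, 34 and 37 without replicate 2 and replicate 1 of the scramble for shRNA1, and 36 with library-total scaling. Many ribosomal protein reads can also fall on processed pseudogenes. Of 664 tested, 109 were higher (16.4%, near the 17.7% of all genes) and 16 lower (2.41%, beside 13.1%). Their median difference was 0.43, beside 0.03 over all genes. The proteasome count was 16 without replicate 2 of the scramble for shRNA2, and the ATF4 count 16 without replicate 1 of that group.

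Among the ATF4 targets, the naming rule gave enzymes of serine synthesis. PSAT1 was at 1726 and 1276 against 3522 and 3020 (1.14 ± 0.12) and PHGDH, the first enzyme of the pathway, at 1015 and 776 against 1864 and 1836 (1.06 ± 0.12). CHAC1, which degrades glutathione, was 2.01-fold higher (1.02 ± 0.12). Heat shock genes were higher in 14 of 21 members (66.7%, beside 17.7% of all genes, median 0.56). They were lower in 0 by limma, edgeR or DESeq2 (1 at an unadjusted p under 0.05). HSPD1, the mitochondrial chaperonin, was at 6241 and 5004 against 12202 and 12786 (1.16 ± 0.11), and HSPH1, a partner of HSP70, at 887 and 558 against 1599 and 1814 (1.27 ± 0.15). The stress-inducible HSPA1A and HSPA1B and the regulator HSF1 did not pass.

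Of 37 nuclear respiratory chain genes 17 were higher, a count that was 9 without replicate 2 of the scramble for shRNA2 and 11 with library-total scaling. Of 33 glycolysis and hypoxia genes 8 were higher (24.2%) and 6 lower (18.2%), shares near those of all genes (17.7% and 13.1%). GAPDH, a glycolytic enzyme often used as a reference gene, was at 16701 and 18686 against 25593 and 28946 (0.62 ± 0.11), whereas SLC16A3, a lactate exporter induced by hypoxia, was at 724 and 1340 against 395 and 437 (-1.24 ± 0.19). The lower count was 10 without replicate 1 of the scramble for shRNA1, 1 without replicate 2 of that group, and 1 and 3 without replicate 1 and replicate 2 of the scramble for shRNA2. The higher count was 5 without replicate 1 of the scramble for shRNA1 and 3 without replicate 2 of the scramble for shRNA2. Among 12 housekeeping genes 6 were higher, GAPDH and TFRC among them, and 0 were lower by limma, while edgeR called 1, DESeq2 called 2 and 2 had an unadjusted p under 0.05.

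**Figure D4:**
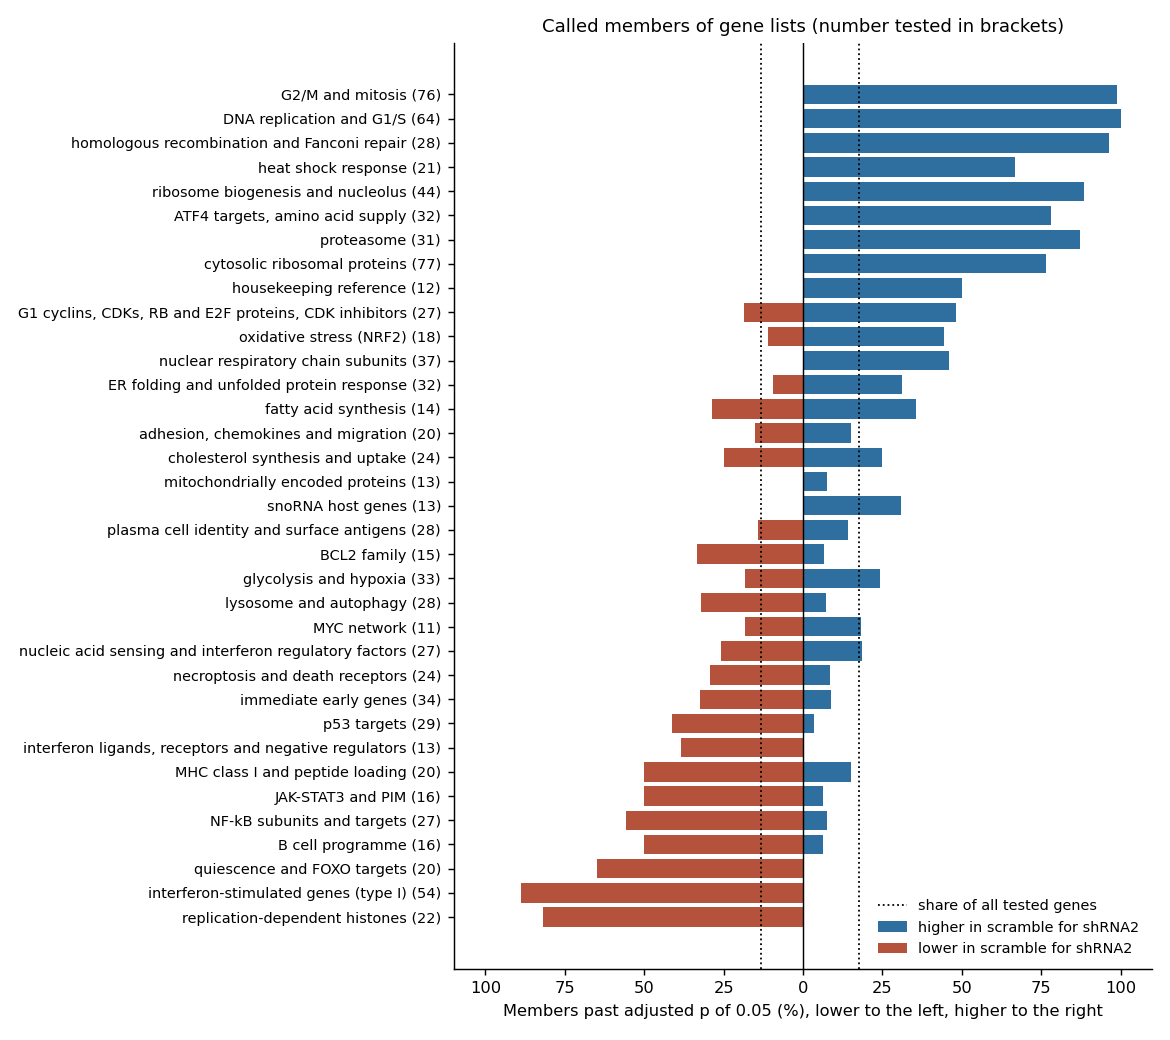
Share of tested members past the adjusted threshold in gene lists with at least 10 tested members (x axis, percent; higher with the scramble for shRNA2 to the right, lower to the left), ordered by median difference, with dotted lines at the shares of all tested genes, 17.7% higher and 13.1% lower. Replication (64 of 64) and mitosis (75 of 76) reach furthest to the right and interferon-stimulated genes (48 of 54) furthest to the left.

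Antigen presentation genes followed the interferon genes in direction. Of 20 members of the MHC class I list, 10 were lower (50%) and 3 higher (15%), beside 13.1% and 17.7% of all genes. The median was -0.32. HLA-B was at 14694 and 15778 against 7532 and 6935 (-1.07 ± 0.10), HLA-F at 1114 and 1199 against 495 and 440 (-1.31 ± 0.11) and HLA-E at 10551 and 13047 against 6328 and 6722 (-0.85 ± 0.11). B2M, the shared light chain, was at 42366 and 45102 against 32918 and 27960 (-0.53 ± 0.12, adjusted p = 0.00267), a call lost without replicate 2 of the scramble for shRNA2 (0.0638). NLRC5, which drives class I transcription, was 1.62-fold lower (-0.70 ± 0.11). Reads of the HLA genes can be shared among them.

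The 3 higher members of that list, PSME2, CALR and PDIA3, were named after their values were seen, and the count of 3 was 0 without replicate 2 of the scramble for shRNA1 and 1 without replicate 2 of the scramble for shRNA2. MHC class II genes were lower in 3 of 9 members (33.3%, beside 13.1% of all genes), a count that moved when a library was left out. They were higher in 0 by limma, edgeR or DESeq2, or at an unadjusted p under 0.05. The 3 were HLA-DQB1 (-1.12 ± 0.22), HLA-DPA1 (-1 ± 0.22) and HLA-DMA (-0.93 ± 0.18), all at values of 43.6 to 163. HLA-DPA1 lost its call without replicate 2 of the scramble for shRNA2 (adjusted p = 0.0619).

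Genes of inflammatory signalling were lower with the scramble for shRNA2 in part. Of 27 NF-kB subunits and targets 15 were lower and 2 higher (median -0.42, beside 13.1% lower and 17.7% higher over all genes), and of 16 JAK-STAT3 and PIM genes 8 were lower and 1 higher (median -0.38). RELB, a subunit of the non-canonical pathway, was at 1427 and 1450 against 681 and 899 (-0.88 ± 0.12), and NFKB2, its partner, at 4726 and 4417 against 2524 and 3019 (-0.73 ± 0.10). IL10RA was 1.63-fold lower (-0.70 ± 0.10) and IL2RG, the common cytokine receptor chain, 3.69-fold lower (-1.82 ± 0.25). The NF-kB count was 9 without replicate 2 of the scramble for shRNA1. Immediate early genes were lower in 11 of 34 members and higher in 3, with JUND at 2872 and 3435 against 1755 and 1592 (-0.91 ± 0.10); the higher count was 0 without replicate 2 of the scramble for shRNA2 and 5 without replicate 1 of the scramble for shRNA1. FOS, JUN and DUSP1 were among the 20 members that did not pass, whereas EGR1, JUNB, NR4A1 and ZFP36 were among the 11 lower ones.

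Targets of p53 were lower in 12 of 29 members (41.4%, beside 13.1% of all genes), CDKN1A among them. They were higher in 1 (3.45%, beside 17.7%), and the median was -0.20. BBC3, the pro-apoptotic PUMA, was at 995 and 1027 against 377 and 416 (-1.35 ± 0.11), TP53INP1 at 3589 and 3903 against 1718 and 1430 (-1.26 ± 0.10) and GDF15, a secreted stress factor, at 139 and 254 against 64.9 and 35.1 (-1.95 ± 0.28). MDM2, BAX and FAS, other targets of p53, did not pass, and the lower count was 6 without replicate 2 of the scramble for shRNA2 and 7 without replicate 1. In the BCL2 family 5 of 15 were lower (33.3%) and 1 higher (6.67%), beside the same 13.1% and 17.7% of all genes. BCL2L11, the pro-apoptotic BIM, was at 1638 and 1432 against 847 and 924 (-0.79 ± 0.10), and MCL1, the survival factor of plasma cells, was at 71383 and 74856 against 47900 and 46833 (-0.63 ± 0.12). Members that promote and that prevent apoptosis were thus among the 5.

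Of 24 tested necroptosis and death receptor genes, 7 were lower (29.2%) and 2 higher (8.33%), beside 13.1% and 17.7% of all genes. ZBP1 is itself a member and was among the 7. The lower count fell without replicate 2 of the scramble for shRNA1 and without either library of the scramble for shRNA2. With library-total scaling it was 11. RIPK1, MLKL and CASP8 did not pass. RIPK3, the kinase that ZBP1 engages, had 0 reads in all 4 libraries, which allows up to 3 in each. CFLAR, an inhibitor of CASP8, was 1.39-fold lower (-0.47 ± 0.10).

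The defining genes of plasma cells were abundant in both groups. Of 7 plasma cell markers, 2 were higher with the scramble for shRNA2, IRF4 and JCHAIN, and 0 were lower. Over all genes, 17.7% were higher and 13.1% lower. JCHAIN was at 30400 and 32600 against 43200 and 40000. SDC1, PRDM1, XBP1, TNFRSF17 and MZB1 did not pass the test. SDC1, the plasma cell antigen CD138, was at 14147 and 14124 against 13699 and 15991, with overlapping groups (0.07 ± 0.10, adjusted p = 0.670). PRDM1, the regulator of plasma cell fate, was at 6597 and 6591 against 6420 and 6616 (-0.02 ± 0.09, adjusted p = 0.907). XBP1 was at 28597 and 28289 against 32793 and 34082 (0.23 ± 0.11, adjusted p = 0.113) and TNFRSF17, the BCMA antigen, at 8160 and 8461 against 9564 and 9726 (0.22 ± 0.09, adjusted p = 0.0918). IRF4, on which myeloma cells depend, was 1.28-fold higher (0.36 ± 0.10, adjusted p = 0.0145), a call lost without replicate 2 of either group (0.132 and 0.114). MYC was at 11118 and 9247 against 11570 and 13772 (0.32 ± 0.11, adjusted p = 0.0428), and that call was also lost without replicate 2 of either group (0.369 and 0.353).

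Across the list of plasma cell identity and surface antigens 4 of 28 were higher and 4 lower (14.3% each, near the 17.7% and 13.1% of all genes), with 2 higher without replicate 2 of the scramble for shRNA1 or either library of the scramble for shRNA2, and 2 lower without replicate 2 of the scramble for shRNA2. Of the lower members, FCRL5 was at 2567 and 2820 against 1253 and 1205 (-1.13 ± 0.10) and SLAMF7 at 7575 and 8808 against 4663 and 4579 (-0.82 ± 0.10). CD38 was at 4230 and 5011 against 3777 and 3174 (-0.41 ± 0.11, adjusted p = 0.00779), a call lost without replicate 2 of the scramble for shRNA1 (0.0915) or for shRNA2 (0.150).

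H929 carries the translocation t(4;14), which places FGFR3 and NSD2 (WHSC1 in the deposited table) under control of immunoglobulin heavy chain enhancers on the different derivative chromosomes. FGFR3, a receptor tyrosine kinase, was at 18838 and 19463 against 7835 and 8878, 2.29-fold lower with the scramble for shRNA2 (-1.20 ± 0.10, adjusted p = 1.5e-07). NSD2, a histone methyltransferase, was at 17348 and 17934 against 16237 and 17172, with a difference of -0.08 ± 0.10 that did not pass (adjusted p = 0.588). The 2 genes lie close together on chromosome 4, FGFR3 at 1793293 to 1808872 and WHSC1 at 1871424 to 1982207, both on the plus strand. The difference between their differences was not tested.

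Immunoglobulin genes were lower in 5 of 6 tested members (83.3%, beside 13.1% of all genes). They were higher in 0 by limma, edgeR and DESeq2, and in 0 at an unadjusted p under 0.05. IGHA1 was at 1507 and 2440 against 470 and 498 (-1.99 ± 0.15), IGHA2 at 513 and 917 against 70.0 and 85.1 (-3.13 ± 0.20) and IGHE at 3510 and 5624 against 1507 and 1853 (-1.41 ± 0.16). The kappa light chain gene IGKC was far more abundant and its groups overlapped, at 107672 and 108814 against 92889 and 115636. IGHA1 and IGHA2 are near-identical, so the reads of one may have been counted for the other. In the B cell list 8 of 16 were lower (50%) and 1 higher (6.25%), beside 13.1% and 17.7% of all genes. The lower count was 3 after a filter at a value of 50 and also fell without replicate 2 of either group. MYBL1 was the higher one, at 157 and 139 against 325 and 289 (1.05 ± 0.15).

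Metallothionein genes, which bind zinc and copper and are induced by metals, showed the largest difference of any gene ranked. MT2A was at 870 and 2704 with the scramble for shRNA1 and at 75.2 and 76.6 with the scramble for shRNA2, 23.6-fold lower (-4.32 ± 0.30, adjusted p = 3.9e-08), and MT1F was at 71.0 and 173 against 9.27 and 12.8 (-3.23 ± 0.36). The libraries of the scramble for shRNA1 themselves differed widely. Summed over the 12 metallothionein genes of the table, values were 1095 and 3237 against 185 and 185. The 4 members that passed the filter included MT1X, at 132 and 298 against 85.5 and 83.0 (-1.23 ± 0.26), and MT1E, at 20.4 and 54.1 against 14.4 and 12.8 (-1.24 ± 0.41), both chosen after their values were seen. The members are close copies of one another. The genes of the zinc exporter, SLC30A1, and of the metal-sensing factor, MTF1, are shown for comparison, also chosen afterwards: SLC30A1 was at 876 and 1011 against 924 and 799, and MTF1 at 644 and 623 against 655 and 690, with overlapping groups for SLC30A1 and groups that touch closely for MTF1.

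The other genes among the 10 lowest were UPB1 (-2.99 ± 0.36), TGM2 (-2.86 ± 0.37), HAPLN3 (-2.84 ± 0.21), IL4I1 (-2.77 ± 0.39), TRPM5 (-2.64 ± 0.27) and C10orf10 (-2.60 ± 0.30), with IFI27 and IGHA2. HAPLN3, a matrix link protein, was at 362 and 647 against 69.0 and 64.9. TGM2, a transglutaminase, was at 80.8 and 160 against 22.7 and 9.57, and IL4I1, an amino acid oxidase of B cells, at 52.5 and 155 against 14.4 and 10.6. Replicate 2 of the scramble for shRNA1 was the highest library in each of these 3 genes, as it was for MT2A.

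The 10 genes with the largest positive differences included 3 of the replication list and 1 of the repair list. They were UHRF1, MCM10, NEIL3 (2.03 ± 0.23), SKA3 (1.96 ± 0.17), TFRC, ESCO2 (1.88 ± 0.14), ERCC6L (1.84 ± 0.19), SIGLEC10 (1.84 ± 0.25), BRCA1 and CLSPN. SKA3 holds microtubules to kinetochores and ESCO2 acetylates cohesin during replication. TFRC, the transferrin receptor that imports iron, was at 3641 and 2140 against 10080 and 10595, 3.58-fold higher (1.89 ± 0.16, adjusted p = 1.5e-07). SIGLEC10, a surface lectin of B cells, was at 37.9 and 24.1 against 110 and 112.

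The same questions can be put to the 4 H929 hairpin libraries, which share no library with the scramble groups: 2 with shRNA1 and 2 with shRNA2, and the labels name a scramble for each hairpin without saying that they were transduced together. The shRNA2 columns were assigned to that hairpin by elimination. Between shRNA2 and shRNA1, 5457 genes were higher (31.2%) and 5473 lower (31.3%) of 17477. Of the 2995 genes higher with the scramble for shRNA2, 1918 were also higher with shRNA2 than with shRNA1 (64.0%) and 387 were lower (12.9%). Of the 2213 lower ones, 1274 were also lower (57.6%) and 264 higher (11.9%). The shared genes made up 35.1% of the hairpin list of higher genes and 23.3% of the list of lower ones. Pearson's r between the 2 sets of log2 differences was 0.438 across 16347 genes, which are not independent replicates.

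The proliferation lists were mostly higher in both comparisons, whereas the interferon list was mostly lower between the scrambles and split between the hairpins. With shRNA2 against shRNA1 the replication list had 55 members higher and 2 lower (median 1.51), and the mitosis list 73 higher and 0 lower (median 2.29). Histones were lower in 14 of 22 (median -0.90). The interferon-stimulated genes had 13 members higher and 17 lower of 54, with a median of 0.01. Over all genes of the hairpin comparison, 31.2% were higher and 31.3% lower. IFI27 differed by 0.81 between the hairpins (adjusted p = 0.00201) and by -2.70 between the scrambles and IFI6 by 1.10 (adjusted p = 3.8e-06) and by -1.72. Other members had the same sign in both comparisons: IFITM1 differed by -3.16 between the hairpins (adjusted p = 1.6e-05) and by -2.33 between the scrambles, and IRF7 by -1.39 (adjusted p = 2.7e-06) and by -0.99. FGFR3 was higher by 1.60 (adjusted p = 4.3e-07) and lower by -1.20. MT2A was lower in both, by -4.08 (adjusted p = 5.2e-06) and -4.32. No test of the difference between the comparisons was made, and the hairpin libraries also differ in how they deplete ZBP1.

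**Figure D5:**
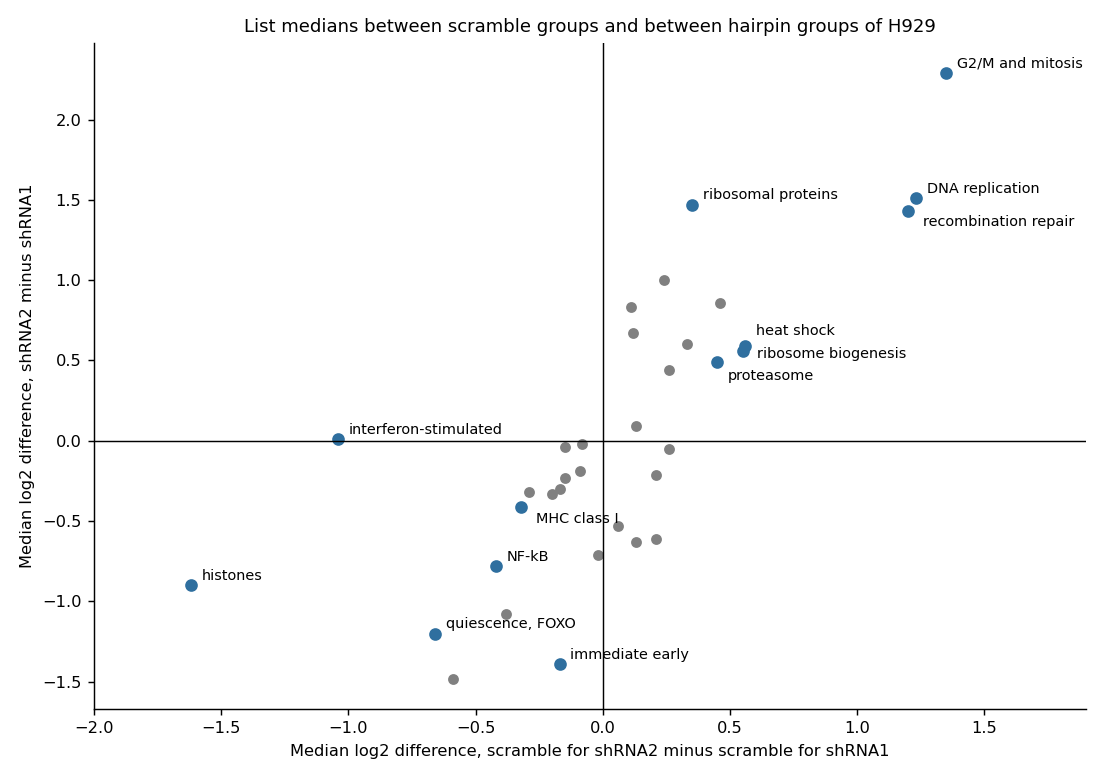
Median log2 difference of each gene list with at least 10 tested members between the scramble groups (x axis) and between the hairpin groups (y axis) of H929, with 2 libraries in each of the 4 groups; labelled lists are blue. The mitosis list lies at 1.35 and 2.29 and the replication list at 1.23 and 1.51, while the interferon-stimulated genes lie at -1.04 and 0.01.

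Markers of other cell types had low sums beside those of plasma cells. Summed values of 7 plasma cell markers were 123000 and 125000 against 142000 and 146000, whereas those of 7 T cell markers were 170 to 238, of 5 NK cell markers 43.6 to 96.6, of 7 monocyte markers 44.7 to 150, and of 5 fibroblast markers 6.18 to 21.4. Sums of 5 epithelial markers were 225 to 286, of 5 mature B cell markers 62.8 to 80.2 and of 4 erythroid markers 0.973 to 5.15. NCR1, COL1A2, LUM, KRT19 and HBA2 had 0 in all 4 libraries. The T cell, NK cell, monocyte, fibroblast and mature B cell sums separated the groups. Each was higher in both libraries of the scramble for shRNA1 than in either of the scramble for shRNA2. Of the single markers, 1 of monocytes, 1 of fibroblasts and 1 of epithelial cells were lower. The part of these markers in the results was not tested. Differences also ran with base composition: Pearson's r between a gene's log2 difference and the GC content of its longest transcript was -0.215 over 16806 genes, and with length it was -0.02. By chromosome, the median ran from -0.10 on chromosome 19, where 19.9% of genes were lower, to 0.13 on chromosome 13, and was 0.18 for mitochondrial genes. Genes of lincRNAs and antisense RNAs made up 1.35% and 1.39% of reads in the scramble for shRNA1 and 1.09% and 1.01% in the other group.

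The libraries' strand is not stated, so reads of a gene may include those of a gene that overlaps it. Of the 176 genes that the naming rule gave, 102 overlap some other annotated gene, and for 82 the overlap is on the opposite strand. IFI6, MX1, ISG15, OAS1, IFIT1, MCM2, HLA-B, CDKN1A and TFRC are among the 82, while IFI27, ZBP1, MKI67, CCNB1, MCM10, MT2A and FGFR3 overlap no annotated gene.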

How the data were processed

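Per the labels' protocols, RNA was extracted with Nucleospin kits, selected for poly(A) and made into libraries (NEBNext Ultra II). The submitters' processing notes name STAR 2.5.3a, DESeq2 1.24.0 and the build GRCh38; the counting tool, annotation and strand are not given in the sources used here. The deposited H929 values are a normalized signal: each library's read counts were divided by its size factor before they were deposited; multiplied back, 100% of values were whole within 0.01. One column was mapped to replicate 2 of the scramble for shRNA1 by elimination.

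The members and gene lists were chosen with earlier results of these data known. Of 58051 genes, those that reached 10 in 2 or more of the 4 libraries were tested with limma 3.58.1 (trend) in R 4.3.3 on log2(value + 1), 4 libraries only; 18 repeated identifiers were left out, and 22315 genes have no symbol. A p-value adjusted by Benjamini-Hochberg under 0.05 was called. Some genes that the rule below gave are not reported here, though they stayed in every test. Genes were named by a rule: prespecified genes, the 10 highest and 10 lowest calls with a mean of at least 50 and no overlap between groups, and up to 4 calls per list by size of difference. The 38 lists matched 1085 of 1087 entries. Positions and overlaps came from GENCODE release 29, promoters from RefSeq (GRCh38.p14), matched by symbol for 11325 of 16884 tested genes.

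The fit was tested on simulated counts of this comparison (16457 genes): 59.7%, 86.6% and 100% of genes changed 1.5-fold, 2-fold and 4-fold were recovered, with 5 false calls among 16257 unchanged genes. In the simulation few genes were changed and each gene varied independently of the others. The real libraries of a group also differed by spread shared across genes, as in the interferon list. The 5 false calls do not measure errors from such shared spread. Alternatives were edgeR 4.0.16 and DESeq2 1.42.0 on the recovered reads, other scalings, pseudocounts and filters, all 8 H929 libraries in 1 fit, each library left out, the replicate number as a block, and, added after the data were seen, a GC correction.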

Additional observations from a re-analysis of the deposited data

How the results depend on the processing

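Counts of higher and lower genes (2995 and 2213) were 2642 and 2494 with edgeR on recovered reads, 2036 and 1606 with DESeq2, 1904 and 3232 with library-total scaling, and 413 and 167 with no filter, where 35202 genes were tested. Leaving out 1 library gave 1549 to 2694 higher and 1276 to 2106 lower; with 1 library left in a group, it is assumed to vary like the other group. Without a filter, 5 interferon genes were lower, 41 replication genes higher and 63 mitosis genes higher; with 1 library left out these counts were 35 to 48, 60 to 64 and 75. No interferon gene was higher and no replication or mitosis gene lower under any of the alternatives. No named gene that was called in the main fit or in an alternative changed sign between those fits. Signs of named genes called in neither fit were not compared. Of 176 named genes, 105 lost the call with no filter, and calls were also lost without replicate 2 of the scramble for shRNA2. Medians of 4 lists near 0 changed sign with a scaling: plasma cell identity (-0.06) and snoRNA hosts (-0.01) with library totals, and the BCL2 family (0.05) and glycolysis (0.05) with the GC correction. Replicate numbers did not pair the libraries (correlation of deviations between same-numbered libraries -0.0773 over 16884 genes); with the number as a replicate block, 3092 genes were higher and 2293 lower, and 176 of 176 named genes kept their side of the threshold. With 2 libraries a group, the spread between libraries, above that of counting, limits the small differences.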

Other observations

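Gene groups of metabolism and stress not described above were called in both directions between the scramble groups, and counts are to be read beside the 17.7% of all genes that were higher and the 13.1% that were lower. Of 24 genes of cholesterol synthesis and uptake 6 were higher and 6 lower (25% each), and of 14 genes of fatty acid synthesis 5 were higher (35.7%) and 4 lower (28.6%). PMVK, an enzyme of the mevalonate pathway, was at 1528 and 1474 with the scramble for shRNA1 and at 2206 and 2868 with the scramble for shRNA2 (0.74 ± 0.11), whereas SREBF1, the factor that drives lipid synthesis genes, was at 2487 and 3122 against 1890 and 1974 (-0.53 ± 0.11). Both cholesterol counts were 2 in one of the fits that left out a library: the higher one without replicate 2 of the scramble for shRNA2, the lower one without replicate 2 of the scramble for shRNA1 (3 without replicate 1 of the scramble for shRNA2). Of 18 genes of the oxidative stress list 8 were higher and 2 lower, with 5 higher without replicate 2 of the scramble for shRNA1 and 4 without replicate 2 of the scramble for shRNA2. PGD, of the pentose phosphate pathway, was at 1246 and 1038 against 1955 and 2068 (0.82 ± 0.10). The 2 lower members were HMOX1, which degrades heme, at 1301 and 1514 against 703 and 868 (-0.84 ± 0.12), and SQSTM1, an autophagy receptor, at 12848 and 13458 against 7644 and 8259 (-0.73 ± 0.10). Lysosome and autophagy genes were lower in 9 of 28 members and higher in 2, with ULK1, the kinase that starts autophagy, at 1608 and 1818 against 945 and 904 (-0.89 ± 0.10).

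Of 32 genes of ER folding and the unfolded protein response 10 were higher and 3 lower; the higher count was 4 without replicate 2 of the scramble for shRNA1, 6 without replicate 2 of the scramble for shRNA2 and 6 with library-total scaling. The lower count was 0 without replicate 2 of the scramble for shRNA2. ERP29, an ER chaperone, was at 2549 and 2366 against 3823 and 4095 (0.69 ± 0.09). HSPA5, HSP90B1 and ATF6 did not pass. Of 13 mitochondrially encoded genes 1 was higher, MT-ATP8 (0.29 ± 0.11, adjusted p = 0.0432), and that call was lost with edgeR (0.0604), TMM scaling (0.0531), library-total scaling (0.189) and the GC correction (0.165) and in 3 fits without 1 library (0.0953 to 0.313). Host genes of snoRNAs were higher in 4 of 13 members (2 in each of the 4 fits without 1 library), with SNHG5 at 1735 and 1594 against 3357 and 2985 (0.93 ± 0.10). In the MYC network MYC and MGA were higher and MXD1 and MXD4 lower of 11 members; MXD4, an antagonist of MYC, was at 3678 and 3915 against 2264 and 2527 (-0.67 ± 0.10). Of 8 translocation genes of myeloma, ITGB7 and CCND3 were higher beside the fall of FGFR3, and both calls were lost without replicate 1 of the scramble for shRNA2 (adjusted p of 0.0994 and 0.0879) and without replicate 2 of that group (0.075 and 0.215). Of 20 adhesion and migration genes 3 were higher (1 without replicate 1 of the scramble for shRNA2) and 3 lower (1 without replicate 2 of either group), with the integrin ITGA4 at 6186 and 6456 against 8707 and 8187 (0.42 ± 0.09) and the selectin ligand SELPLG at 7190 and 8218 against 4646 and 5306 (-0.63 ± 0.10).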
